A study of Mus musculus with 6 samples.

Results

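The genes examined here are the adenylyl and guanylyl cyclases, which make cAMP and cGMP, and the phosphodiesterases, which break them down. They were taken by symbol from the deposited table as every gene whose name begins with *Adcy* or *Pde* and a digit or with *Gucy1* or *Gucy2*, which gave 36 of the 14477 genes listed. No measured value entered this rule, though it was set with earlier results of these data known. GENCODE M21 annotates 45 protein-coding genes with such symbols, and the 9 that were not listed are *Adcy10*, *Gucy1b2*, *Gucy2c*, *Gucy2d*, *Pde4c*, *Pde6a*, *Pde6b*, *Pde6c*, and *Pde6g*. Of the 36 genes, 9 encode adenylyl cyclases, 3 encode subunits of the soluble guanylyl cyclase, 3 encode receptor guanylyl cyclases, and 17 encode cyclic nucleotide phosphodiesterases. The other 4 (*Pde4dip*, *Pde6d*, *Pde6h*, and *Pde12*) share the symbol but encode no catalytic subunit of a cyclic nucleotide phosphodiesterase.

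Hippocampal RNA came from 3 untreated Phf21bΔ4/Δ4 mice (replicates 2, 3, and 6) and 3 untreated Phf21b+/+ mice (replicates 5, 7, and 8), with 1 RNA-Seq library per mouse. Phf21bΔ4/Δ4 mice carry a whole-body CRISPR/Cas9 deletion within the fourth exon of *Phf21b*, which encodes a chromatin reader with a PHD domain. The study describes the line as a knockdown and not a null. All mice are on a C57BL/6J background, and the study's methods describe littermates of both sexes, young adults of 2 to 6 months. The sex and exact age of each of these 6 mice are not given in the sources used here. That the 3 libraries of a genotype come from separate mice is read from their labels.

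Cyclic nucleotides carry signals from receptors at the cell surface to kinases, ion channels, and transcription factors such as CREB. G proteins and calcium act on the adenylyl cyclases, nitric oxide acts on the soluble guanylyl cyclase, and the phosphodiesterases set how long and how far each signal lasts. In hippocampal neurons, cAMP formed by calcium-stimulated adenylyl cyclases is known for its part in long-lasting synaptic plasticity.

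The level of a gene is given in CPM, the read count of a gene scaled to the library's effective size. Between 20495605 and 24881257 reads per library fell on the genes in the table, and a level of 3 reads was 0.127 to 0.143 CPM. *Phf21b* had 2.15, 3.57, and 3.87 CPM in Phf21bΔ4/Δ4 replicates 2, 3, and 6 and 6.50, 5.23, and 6.47 CPM in Phf21b+/+ replicates 5, 7, and 8. Each Phf21bΔ4/Δ4 mouse was below each Phf21b+/+ mouse (log2 fold change -0.96, FDR 0.141 by limma), and the difference was -1.12 (FDR 0.050 by limma) without Phf21bΔ4/Δ4 replicate 6. Markers of hippocampal excitatory neurons (*Slc17a7*, *Neurod6*, *Camk2a*, *Zbtb20*, and *Snap25*) were present in every library, summing to between 3637 and 5175 CPM.

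The libraries also differed in markers of regions and cell types, from lists written for this work with earlier results of these data known. Many habenula markers, such as *Irx2*, *Pou4f1*, *Chat*, *Chrna3*, *Gpr151*, and *Tac2*, are among the study's own differentially expressed genes from these mice. So are the CA1 markers *Fibcd1*, *Mpped1*, and *Gpr161*, and the calls of all these markers are therefore no independent result. All 10 medial habenula markers were past the thresholds given below and lower in Phf21bΔ4/Δ4 mice, where they summed to between 5.0 and 8.56 CPM against 152 to 215 CPM in Phf21b+/+ mice, with *Pou4f1*, *Irx2*, *Chat*, and *Slc18a3* at no more than 3 reads in each Phf21bΔ4/Δ4 library. The 7 CA1 markers summed to 996, 1100, and 1020 CPM in Phf21bΔ4/Δ4 mice and to between 409 and 455 CPM in Phf21b+/+ mice, and 3 were called higher. The 9 dentate granule cell markers summed to 212 and 173 CPM in Phf21bΔ4/Δ4 replicates 2 and 3 but to 632 CPM in replicate 6, near the 652 to 771 CPM of the Phf21b+/+ mice, and 1 was called lower. The 7 markers of GABAergic interneurons summed to between 644 and 817 CPM against 447 to 500 CPM (1 called higher), and the 9 thalamic markers to between 105 and 203 CPM against 365 to 565 CPM (2 called lower). The choroid plexus list summed to 15712 CPM in Phf21b+/+ replicate 7 and to 976 CPM in replicate 8, against 23.1 to 81.4 CPM in the other 4 libraries, with 1 of its 8 markers called lower. Of the 6 astrocyte markers, 1 was called lower. None of the listed markers of CA2 and CA3, striatum, neocortex, oligodendrocytes, microglia, vessels, or excitatory neurons was called. In bulk tissue, fewer cells of a type and less RNA per cell cannot be told apart, and the part of these markers in the results that follow was not tested.

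Genotypes were compared with limma on the deposited log2 CPM values of all 14477 genes, and a gene was called at an FDR under 0.1 with a fold change above 1.3. None of the 36 genes was called, where 1.22% of all genes were. Their FDRs ran from 0.133 for *Pde1a* to 0.942 for *Pde1c*, and 10 of the 36 had an unadjusted p under 0.05 (limma), against 23.6% of all genes, with 7 of them higher in Phf21bΔ4/Δ4 mice (11.6% of all genes) and 3 lower (12% of all genes). With limma voom on reads recovered from the values, none of the 36 was called either.

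In 12 of the 36 genes, the 3 Phf21bΔ4/Δ4 mice all lay beyond the 3 Phf21b+/+ mice, a share close to the 31.0% of all genes in which the genotypes did not overlap. In 8 of them the Phf21bΔ4/Δ4 mice were above (15% of all genes) and in 4 below (16.0% of all genes). For any such gene, an exact permutation test over these 6 mice gives the smallest p it can reach, 0.1. At over 1.3-fold, 10 of the 36 genes did not overlap against 15.1% of all genes, 7 of them higher (6.14% of all genes) and 3 lower (8.96% of all genes). Regardless of overlap, the means differed by over 1.3-fold in 15 of the 36 genes, against 27.3% of all genes, with 10 higher (10.9% of all genes) and 5 lower (16.4% of all genes). The mean log2 CPM was higher in Phf21bΔ4/Δ4 mice for 25 of the 36 genes, as it was for 47.6% of all genes. The median log2 fold change was 0.22 over the 36 genes and -0.02 over all genes, and the single values ran from -0.73 for *Gucy1a1* to 1.3 for *Pde11a*.

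**Figure D1:**
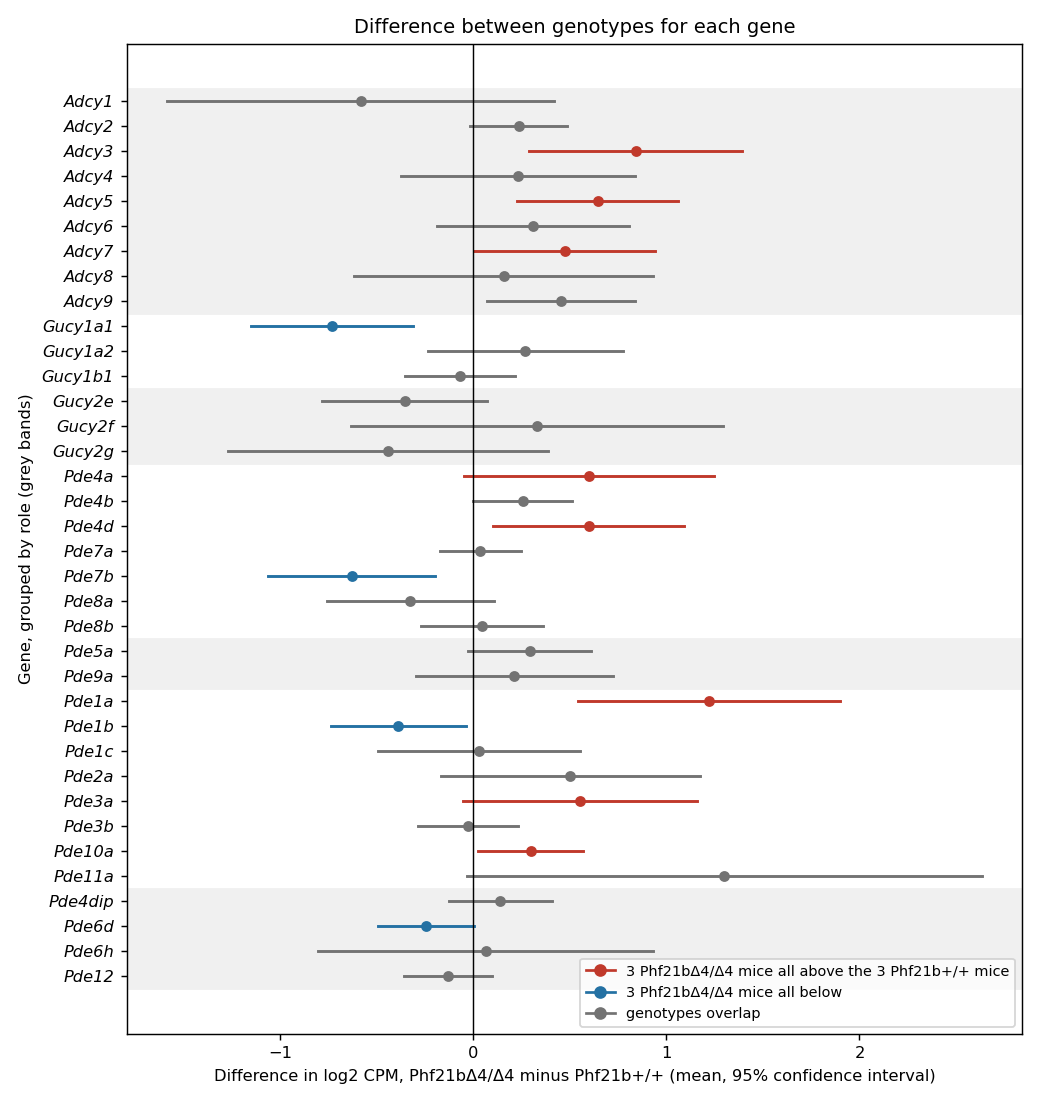
Difference in mean log2 CPM between Phf21bΔ4/Δ4 and Phf21b+/+ mice (horizontal axis, points) with its 95% confidence interval from limma (lines) for each of the 36 genes, grouped by role in grey and white bands. In 8 genes all 3 Phf21bΔ4/Δ4 mice were above the Phf21b+/+ mice (red), in 4 all were below (blue), and in the rest the genotypes overlapped (grey).

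The Phf21bΔ4/Δ4 mice varied more among themselves than the Phf21b+/+ mice did. The SD of log2 CPM was larger in Phf21bΔ4/Δ4 mice for 30 of the 36 genes (83.3%), against 62.7% of all genes. Its median over the 36 genes was 0.32 in Phf21bΔ4/Δ4 mice and 0.19 in Phf21b+/+ mice, compared with 0.17 and 0.13 over all genes. Phf21bΔ4/Δ4 replicate 6 was the mouse of its genotype nearest to the Phf21b+/+ mean for 22 of the 36 genes (61.1%), against 52.0% of all genes. Replicate 3 was the nearest for 9 genes (21.7% of all genes) and replicate 2 for 5 genes (26.3% of all genes). Replicate 6 lay within the Phf21b+/+ range for 12 of the 36 genes, replicate 3 for 10, and replicate 2 for 8, where the shares of all genes were 37.7%, 23.0%, and 27.1%.

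Leaving out that library altered the calls. Where replicate 6 was the mouse nearest to the Phf21b+/+ mean, leaving it out tends to widen the difference. Values without it, here and below, are therefore no separate support for a difference. Without Phf21bΔ4/Δ4 replicate 6, limma called 12 of the 36 genes (33.3%) and 19.5% of all genes. *Pde1a*, *Pde11a*, *Pde4d*, *Adcy3*, *Adcy5*, *Adcy6*, and *Adcy7* were then called higher in Phf21bΔ4/Δ4 mice (7 genes, against 10.3% of all genes), and *Adcy1*, *Gucy1a1*, *Pde1b*, *Pde7b*, and *Pde8a* were called lower (5 genes, against 9.29% of all genes). None of the 36 genes was called without Phf21bΔ4/Δ4 replicate 2 or 3, where 0.193% and 0.311% of all genes were, or without Phf21b+/+ replicate 5, 7, or 8, where 0.187%, 0.0967%, and 0.0622% of all genes were. When limma weighted the mice by arrayWeights, 16 of the 36 genes (44.4%) and 24.5% of all genes were called, and the 12 genes named above were among the 16.

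**Figure D2:**
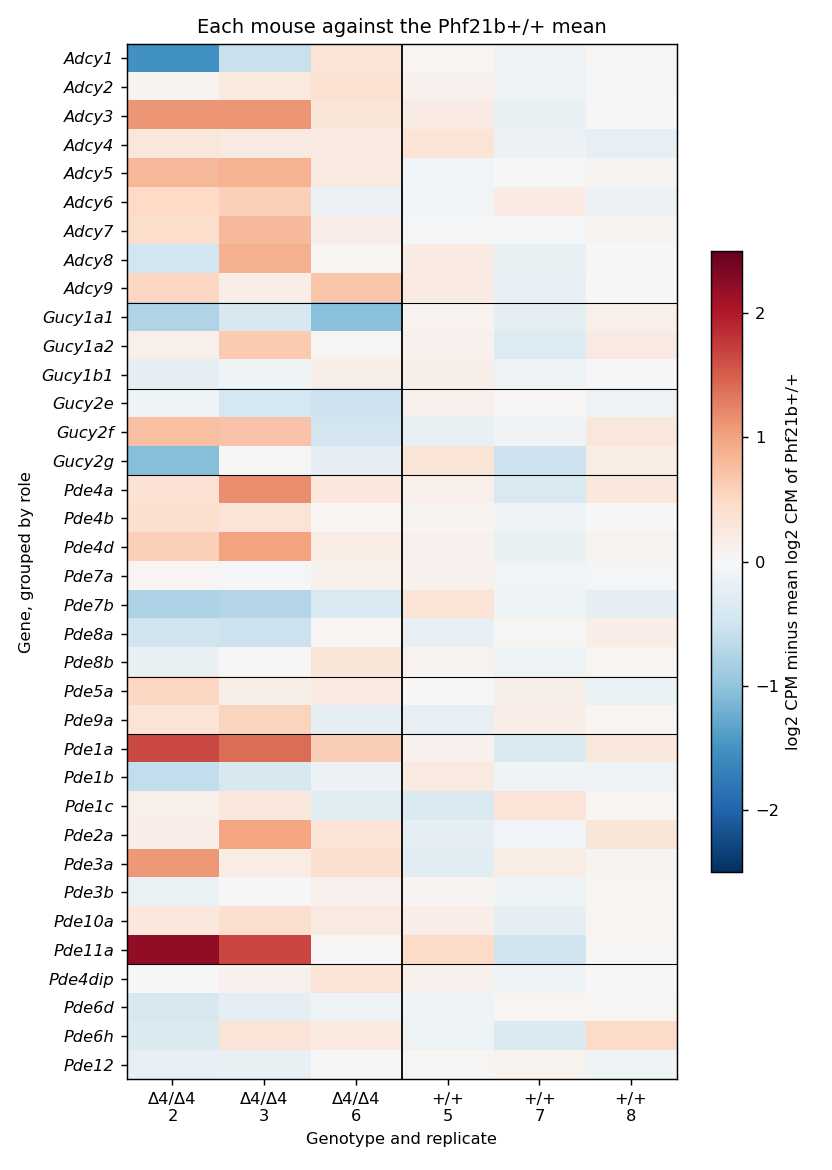
Level of each of the 36 genes (rows, grouped by role) in each mouse (columns) as log2 CPM minus the mean log2 CPM of the 3 Phf21b+/+ mice, with red above and blue below that mean. Phf21bΔ4/Δ4 replicates 2 and 3 hold the deepest colors, *Pde11a* and *Pde1a* in red and *Adcy1* of replicate 2 in blue, and replicate 6 is the paler of the 3 for 22 genes.

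Among the 9 adenylyl cyclase genes, 8 had a higher mean in Phf21bΔ4/Δ4 mice and none was called. *Adcy1*, which encodes a cyclase stimulated by calcium and calmodulin, had 681, 1316, and 2415 CPM in Phf21bΔ4/Δ4 replicates 2, 3, and 6 and 2013, 1812, and 1989 CPM in Phf21b+/+ replicates 5, 7, and 8. Replicates 2 and 3 of the Phf21bΔ4/Δ4 mice were the lowest of the 6 and replicate 6 was the highest, a 3.54-fold spread within the genotype against 1.11-fold among the Phf21b+/+ mice. The log2 fold change was -0.58 (95% confidence interval -1.58 to 0.42, FDR 0.407, limma). Without Phf21bΔ4/Δ4 replicate 6 it was -1.03 (FDR 0.065, limma), and without replicate 2 it was -0.12. The dentate granule cell markers were low in the same 2 libraries, at 212 and 173 CPM in sum, and near the Phf21b+/+ level in replicate 6. So were the 8 oligodendrocyte markers, at 6021, 6177, and 9166 CPM in sum in replicates 2, 3, and 6 against 7225 to 10003 CPM in Phf21b+/+ mice. The part of either list in the values of *Adcy1* was not tested.

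*Adcy5*, whose cyclase is inhibited by calcium and dominates in the striatum, had 196, 200, and 128 CPM in Phf21bΔ4/Δ4 mice and 104, 111, and 114 CPM in Phf21b+/+ mice. All 3 Phf21bΔ4/Δ4 mice were above the Phf21b+/+ range, replicate 6 by the least. Its log2 fold change was 0.65 (95% confidence interval 0.23 to 1.06, FDR 0.142, limma), and it was 0.85 (FDR 0.0073, limma) without Phf21bΔ4/Δ4 replicate 6. Without Phf21bΔ4/Δ4 replicate 2 it was 0.55 (FDR 0.340, limma), and without replicate 3 it was 0.53 (FDR 0.296, limma). The 7 striatal markers listed summed to 48.0 to 84.7 CPM in Phf21bΔ4/Δ4 mice and 75.1 to 145 CPM in Phf21b+/+ mice, and the striatal receptor *Adora2a* was between 0.633 and 1.38 CPM in all 6 libraries. The mean of 6 of these 7 markers was lower in Phf21bΔ4/Δ4 mice. Whether striatal cells had a part in the values of *Adcy5* was not tested.

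*Adcy3*, which encodes the cyclase of olfactory and neuronal primary cilia, had 101, 100, and 58.1 CPM in Phf21bΔ4/Δ4 mice and 54.0, 40.9, and 46.4 CPM in Phf21b+/+ mice. The genotypes did not overlap, though Phf21bΔ4/Δ4 replicate 6 lay just above the highest Phf21b+/+ mouse. The log2 fold change was 0.84 (95% confidence interval 0.29 to 1.39, FDR 0.144, limma) with all mice and 1.11 (FDR 0.013, limma) without that replicate. Of its exon length, 22.1% is shared with *Cenpo* on the other strand, and whether the counting used strand is not given in the sources used here. *Cenpo* itself was between 2.76 and 3.42 CPM in all 6 mice.

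*Adcy7*, a cyclase gene best known from immune cells, was far lower, at 4.93, 6.33, and 4.09 CPM in Phf21bΔ4/Δ4 mice and 3.56, 3.54, and 3.78 CPM in Phf21b+/+ mice. All Phf21bΔ4/Δ4 mice were above the narrow Phf21b+/+ range (log2 fold change 0.47, FDR 0.208, limma), and it was 0.62 (FDR 0.076, limma) without replicate 6. *Adcy2*, of the group stimulated by G protein βγ subunits, had 171, 193, and 213 CPM in Phf21bΔ4/Δ4 mice and 176, 153, and 160 CPM in Phf21b+/+ mice, and the genotypes overlapped. The remaining 4 (*Adcy4*, *Adcy6*, *Adcy8*, and *Adcy9*) overlapped between genotypes as well, with log2 fold changes of 0.16 for *Adcy8*, 0.23 for *Adcy4*, 0.31 for *Adcy6*, and 0.46 for *Adcy9*. *Adcy8*, the other cyclase strongly stimulated by calcium and calmodulin, spread 2.57-fold among the Phf21bΔ4/Δ4 mice and 1.32-fold among the Phf21b+/+ mice.

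Levels of different genes were compared per kb of exon, and the shares and ratios on this scale were all picked after the values were seen. On that scale *Adcy1* was the highest of the 36 genes in Phf21b+/+ mice, at 155 ± 8.76 CPM per kb (SD, n = 3), and it took 61.5%, 62.2%, and 63.1% of the summed adenylyl cyclase level in Phf21b+/+ replicates 5, 7, and 8. In Phf21bΔ4/Δ4 replicates 2, 3, and 6 its share was 30.1%, 44.4%, and 61.1%. Each Phf21bΔ4/Δ4 share was below each Phf21b+/+ share, but the share in replicate 6 was close to them. The other 8 adenylyl cyclase genes summed to 711, 750, and 655 CPM in Phf21bΔ4/Δ4 mice and 545, 481, and 506 CPM in Phf21b+/+ mice, so that their sums did not overlap.

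**Figure D3:**
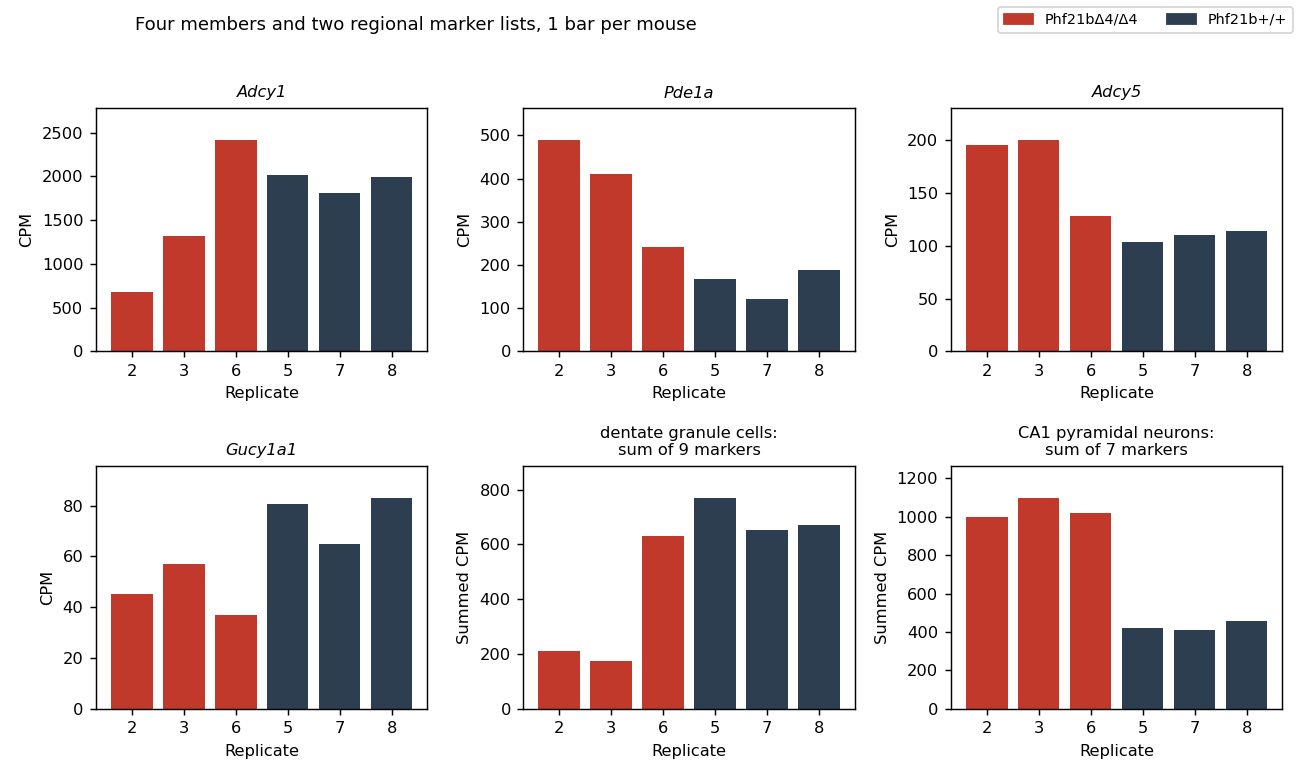
Level (vertical axis, CPM from 0) of *Adcy1*, *Pde1a*, *Adcy5*, and *Gucy1a1* and the summed CPM of the 9 dentate granule cell and 7 CA1 markers, with 1 bar per mouse (replicate numbers below; red, Phf21bΔ4/Δ4; dark blue, Phf21b+/+). *Adcy1* and the dentate sum are low in Phf21bΔ4/Δ4 replicates 2 and 3 and not in replicate 6, whereas the CA1 sum is 996 or more in all 3 Phf21bΔ4/Δ4 mice.

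Of the subunits of the soluble guanylyl cyclase, the receptor for nitric oxide, *Gucy1b1* encodes the β1 chain that pairs with an α chain from *Gucy1a1* or *Gucy1a2*. *Gucy1a1*, on chromosome 3 of GRCm38 from 82092427 to 82145789, had 45.2, 57.1, and 36.8 CPM in Phf21bΔ4/Δ4 mice and 80.4, 64.8, and 83.2 CPM in Phf21b+/+ mice. All Phf21bΔ4/Δ4 mice were below the Phf21b+/+ range, and here replicate 6 was the lowest. The log2 fold change was -0.73 (95% confidence interval -1.15 to -0.31, FDR 0.133, limma). It ran from -0.89 to -0.58 with each mouse left out in turn and passed the FDR threshold only without Phf21bΔ4/Δ4 replicate 6, at -0.58 (FDR 0.063, limma).

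*Gucy1b1*, on the same chromosome and strand from 82032006 to 82074689, had 183, 198, and 236 CPM in Phf21bΔ4/Δ4 mice and 236, 196, and 213 CPM in Phf21b+/+ mice. Its genotypes overlapped almost wholly, with a log2 fold change of -0.07 (95% confidence interval -0.35 to 0.22). *Gucy1a2* overlapped too, with a log2 fold change of 0.27. The ratio of *Gucy1a1* to *Gucy1a2*, in CPM per kb, was 1.11, 0.981, and 0.973 in Phf21bΔ4/Δ4 mice and 2.0, 2.22, and 1.91 in Phf21b+/+ mice. Within each genotype the ratio differed little, and the genotypes stood well apart. The ratio of *Gucy1a1* to *Gucy1b1* was 0.139, 0.163, and 0.0880 in Phf21bΔ4/Δ4 mice and 0.192, 0.186, and 0.220 in Phf21b+/+ mice, again without overlap. In sum, the interneuron, CA1, and vessel markers were higher in all 3 Phf21bΔ4/Δ4 mice. The medial habenula, thalamic, and dentate granule cell markers were lower in sum in all 3. The part of any of these in the values of *Gucy1a1* was not tested.

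The receptor guanylyl cyclase genes were near the lower end of the table. *Gucy2e* and *Gucy2f*, which encode the retinal cyclases, averaged 4.29 and 1.09 CPM in Phf21b+/+ mice, and *Gucy2g*, an olfactory receptor cyclase, averaged 4.84 CPM. All 3 overlapped between genotypes. The fewest reads of any of the 36 genes in a library were 18, for *Gucy2f* in Phf21bΔ4/Δ4 replicate 6.

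Phosphodiesterases that hydrolyze both cyclic nucleotides had the widest differences. *Pde1a*, on chromosome 2 from 79834453 to 80129458, encodes a calcium- and calmodulin-activated enzyme. It had 489, 411, and 241 CPM in Phf21bΔ4/Δ4 replicates 2, 3, and 6 and 168, 122, and 188 CPM in Phf21b+/+ replicates 5, 7, and 8. All 3 Phf21bΔ4/Δ4 mice were above the Phf21b+/+ range, and replicates 2 and 3 were more than 2 times its highest value. The log2 fold change was 1.22 (95% confidence interval 0.54 to 1.90, FDR 0.133, limma), or 2.33-fold, and it was 1.52 (FDR 0.017, limma) without Phf21bΔ4/Δ4 replicate 6. The CA1 markers summed to 996, 1100, and 1020 CPM in Phf21bΔ4/Δ4 replicates 2, 3, and 6 and to 409 to 455 CPM in Phf21b+/+ mice. Replicate 6 was the lowest of the 3 in *Pde1a* but not in these markers, and a link was not tested.

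*Pde1b*, on chromosome 15 like *Phf21b* itself and like *Adcy6* and *Adcy8*, encodes a related calcium- and calmodulin-activated enzyme. Its values were 96, 112, and 132 CPM in Phf21bΔ4/Δ4 mice and 171, 137, and 135 CPM in Phf21b+/+ mice. These did not overlap and ran opposite to *Pde1a*, but Phf21bΔ4/Δ4 replicate 6 was close to the lowest Phf21b+/+ mice (log2 fold change -0.39, 95% confidence interval -0.74 to -0.04, FDR 0.188, limma). Without that replicate the log2 fold change was -0.51 (FDR 0.062, limma). *Pde1c*, the remaining gene of the family, had a log2 fold change of 0.03 (95% confidence interval -0.49 to 0.55). In CPM per kb, the ratio of *Pde1a* to *Pde1b* was 4.57, 3.31, and 1.63 in Phf21bΔ4/Δ4 mice and 0.878, 0.794, and 1.25 in Phf21b+/+ mice. *Pde1a* ranked 5 of the 36 genes in Phf21b+/+ mice and right behind *Adcy1* in Phf21bΔ4/Δ4 mice.

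*Pde11a*, singled out here after its values were seen because it had the largest difference in means, encodes a dual phosphodiesterase that in the brain is known mainly from the hippocampal formation, above all its ventral part. It had 37.6, 26.0, and 8.26 CPM in Phf21bΔ4/Δ4 mice and 11.3, 5.74, and 8.27 CPM in Phf21b+/+ mice. Replicates 2 and 3 were above all Phf21b+/+ mice and replicate 6 was within their range, so that the genotypes overlapped. The log2 fold change of 1.3 had a 95% confidence interval of -0.03 to 2.63 (FDR 0.218, limma), and it was 1.94 (FDR 0.025, limma) without Phf21bΔ4/Δ4 replicate 6.

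*Pde3a*, a phosphodiesterase gene of heart, vessel, and platelet known for inhibition of its product by cGMP, had 15.9, 8.53, and 9.87 CPM in Phf21bΔ4/Δ4 mice and 6.26, 8.52, and 7.91 CPM in Phf21b+/+ mice. The genotypes did not overlap, but Phf21bΔ4/Δ4 replicate 3 and Phf21b+/+ replicate 7 were almost the same (log2 fold change 0.55, FDR 0.235, limma). The 10 markers of endothelium, pericytes, and smooth muscle summed to 328, 251, and 208 CPM in Phf21bΔ4/Δ4 mice and 196, 173, and 148 CPM in Phf21b+/+ mice, and like *Pde3a* they were highest in Phf21bΔ4/Δ4 replicate 2. *Pde10a*, a striatal phosphodiesterase gene, was also higher in every Phf21bΔ4/Δ4 mouse, and its FDR by limma was 0.190 at a log2 fold change of 0.30. *Pde2a* and *Pde3b* overlapped between genotypes, at log2 fold changes of 0.50 and -0.03. The level of *Pde2a*, 2.38 ± 0.481 CPM (SD, n = 3) in Phf21b+/+ mice, is uncertain, since 64.3% of its exon length is also annotated to the overlapping gene *Gm45837* on the same strand, and how reads common to 2 genes were assigned is not given in the sources used here.

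The cAMP-specific phosphodiesterases went both ways. Of the *Pde4* genes, whose products are the targets of rolipram, *Pde4d* had 60.2, 79.6, and 45.0 CPM in Phf21bΔ4/Δ4 mice and 42.6, 34.6, and 42.1 CPM in Phf21b+/+ mice. Its genotypes did not overlap, with replicate 6 just above the Phf21b+/+ range (log2 fold change 0.60, 95% confidence interval 0.10 to 1.09, FDR 0.169, limma). Without that replicate the log2 fold change was 0.81 (FDR 0.034, limma). *Pde4a* had 42.3, 73.6, and 39.4 CPM in Phf21bΔ4/Δ4 mice and 35.6, 25.3, and 39.1 CPM in Phf21b+/+ mice. Here replicate 3 stood apart and the other 2 Phf21bΔ4/Δ4 mice were close to the highest Phf21b+/+ mice (log2 fold change 0.60, 95% confidence interval -0.05 to 1.25, FDR 0.232, limma). Neocortical markers were likewise highest in Phf21bΔ4/Δ4 replicate 3, at 268 CPM in sum against 105 to 140 CPM in the other 5 libraries. *Pde4b* overlapped, with a log2 fold change of 0.26.

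*Pde7b*, another striatal phosphodiesterase gene, had 16.2, 16.8, and 21.4 CPM in Phf21bΔ4/Δ4 mice and 35.1, 26.0, and 23.6 CPM in Phf21b+/+ mice. All Phf21bΔ4/Δ4 mice were below the Phf21b+/+ range (log2 fold change -0.63, 95% confidence interval -1.06 to -0.19, FDR 0.149, limma), and without replicate 6 the log2 fold change was -0.75 (FDR 0.051, limma). Its paralog *Pde7a* had a log2 fold change of 0.04 with a 95% confidence interval of -0.17 to 0.25. In CPM per kb, the ratio of *Pde7a* to *Pde7b* was 2.90, 2.62, and 2.26 in Phf21bΔ4/Δ4 mice and 1.39, 1.66, and 1.87 in Phf21b+/+ mice, which restates the values of *Pde7b*, as *Pde7a* was nearly level. *Pde8a* and *Pde8b*, which encode enzymes of high affinity for cAMP, overlapped between genotypes, at log2 fold changes of -0.33 and 0.04, and *Pde8a* was at -0.51 (FDR 0.057, limma) without Phf21bΔ4/Δ4 replicate 6.

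The cGMP-specific phosphodiesterase genes *Pde5a*, the target of sildenafil, and *Pde9a* overlapped between genotypes, with log2 fold changes of 0.29 and 0.21. Of the 4 genes that share only the symbol, *Pde6d*, which encodes a chaperone of prenylated proteins, was lower in every Phf21bΔ4/Δ4 mouse, with an FDR of 0.219 by limma and a log2 fold change of -0.24. The centrosomal scaffold gene *Pde4dip*, the mitochondrial *Pde12*, and *Pde6h*, the inhibitory subunit gene of cones, overlapped, with log2 fold changes of 0.14, -0.13, and 0.07.

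**Figure D4:**
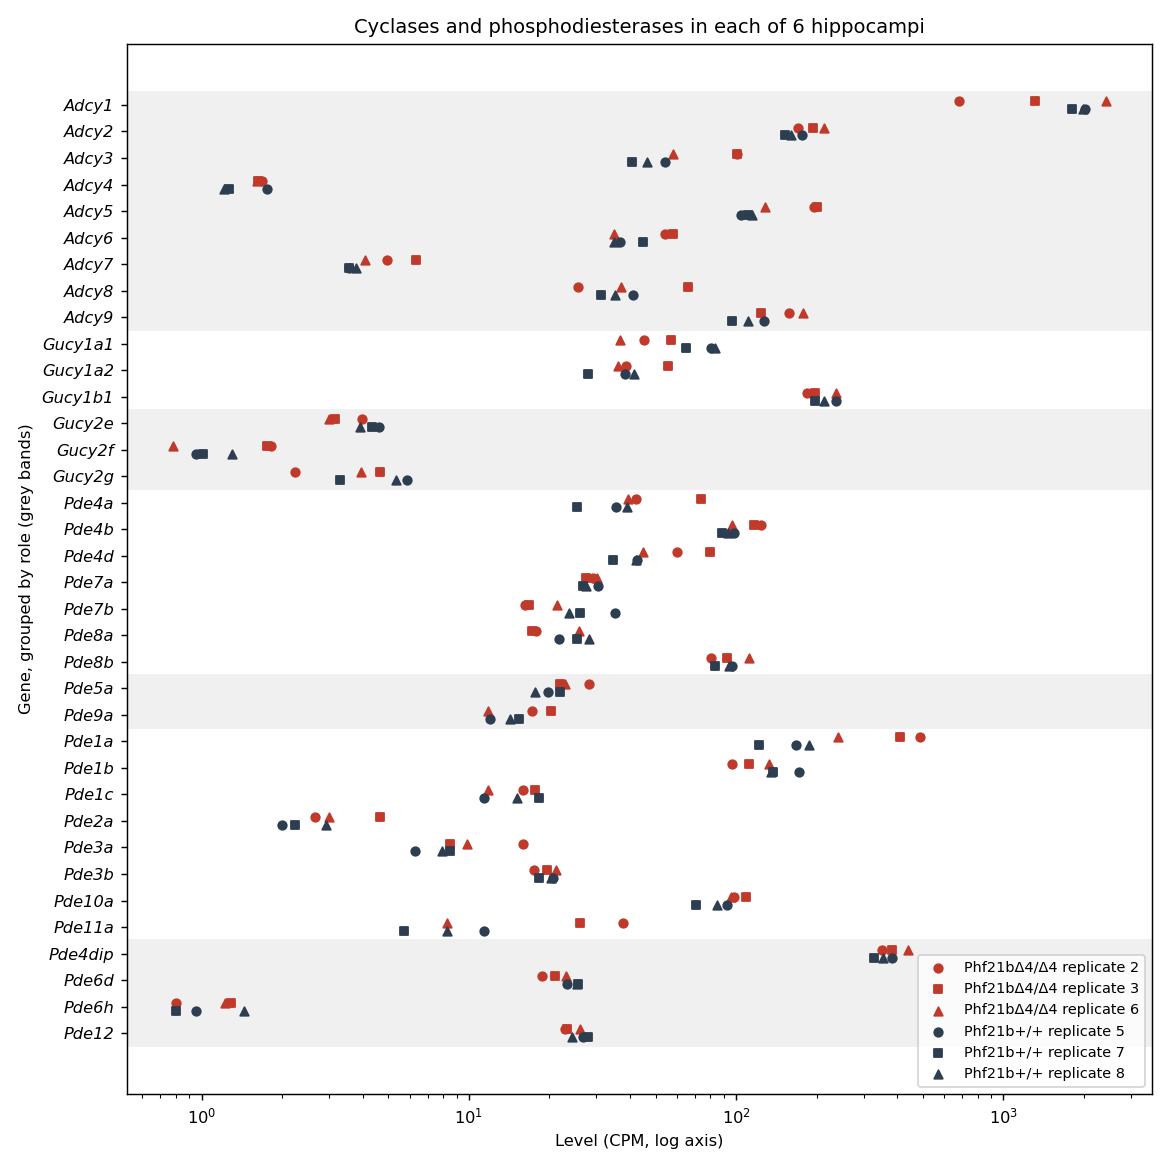
Level in CPM (horizontal log axis) of each of the 36 genes, grouped by role in grey and white bands, with 1 point per mouse (red, Phf21bΔ4/Δ4; dark blue, Phf21b+/+; the shape marks the replicate). Levels run from about 1 CPM for *Gucy2f* and *Pde6h* to 2415 CPM for *Adcy1*, whose 3 Phf21bΔ4/Δ4 points lie on both sides of the Phf21b+/+ points.

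Over the role groups, the 17 cyclic nucleotide phosphodiesterases summed to 1187, 1173, and 928 CPM in Phf21bΔ4/Δ4 mice and 875, 729, and 841 CPM in Phf21b+/+ mice. These sums did not overlap, but without *Pde1a* they did, at 698, 762, and 687 CPM against 707, 608, and 654 CPM. The 7 cAMP-specific genes alone did not overlap in sum, at 370, 423, and 370 CPM against 360, 310, and 348 CPM. The 2 cGMP-specific genes overlapped in sum. The 9 adenylyl cyclases summed to 1393, 2066, and 3070 CPM in Phf21bΔ4/Δ4 mice and 2558, 2293, and 2494 CPM in Phf21b+/+ mice, an order set by *Adcy1*. In CPM per kb, *Adcy1* was followed in Phf21b+/+ mice by *Gucy1b1* at 54.7 ± 5.03, *Adcy2* at 38.7 ± 2.86, *Pde1b* at 27.4 ± 3.77, and *Pde1a* at 26.4 ± 5.62 (SD, n = 3 each). The Phf21b+/+ ranges of *Adcy1*, *Gucy1b1*, and *Adcy2* were each apart from the next in order. *Pde1b* and *Pde1a* overlapped, and so did the neighbors in 27 of the 35 steps down the order in all.

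**Figure D5:**
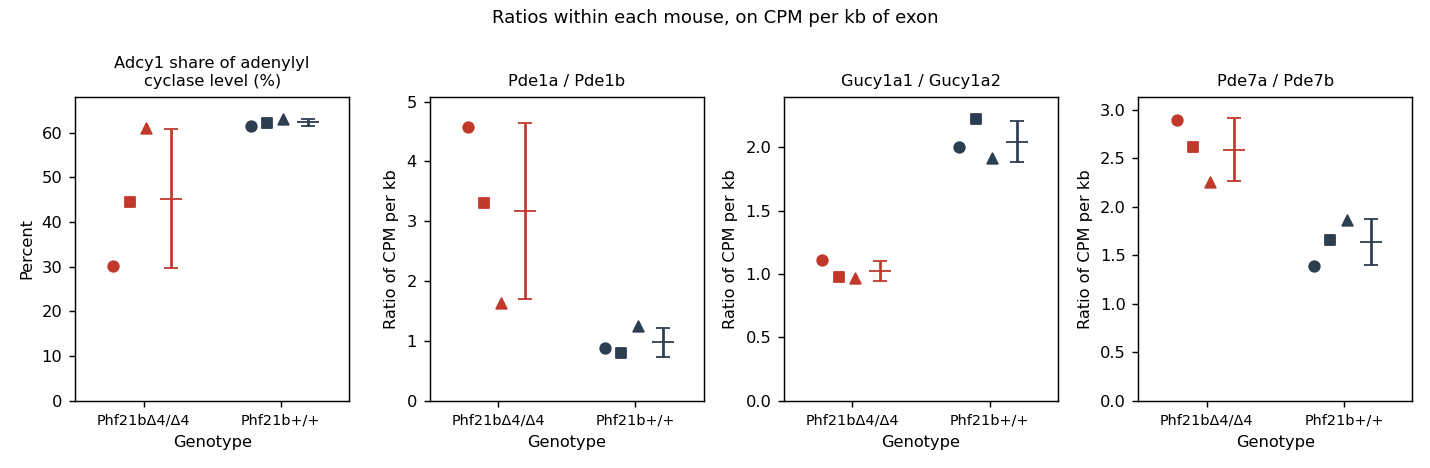
Share of *Adcy1* in the summed adenylyl cyclase level (percent) and 3 ratios between paralogs, all from CPM per kb of exon, for each of the 3 mice per genotype (points; the shape marks the replicate) with the mean and SD beside them. *Gucy1a1* over *Gucy1a2* was 0.973 to 1.11 in Phf21bΔ4/Δ4 mice and 1.91 to 2.22 in Phf21b+/+ mice, while the other 3 panels show a wider spread among the Phf21bΔ4/Δ4 mice.

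Other genes of the pathway were taken from 6 lists, which held 71 genes, 60 of them in the table. Of the 60, 2 were called higher (0.553% of all genes were) and 3 were called lower (0.663% of all genes were). *Npr1*, *Nppa*, and *Akap5* are among the study's own differentially expressed genes from these mice, and the lists were written with earlier results known. These counts and calls are therefore no independent result. By list, the natriuretic peptide and nitric oxide synthase genes had 2 of 8 called, the A-kinase anchoring proteins 1 of 12, and the inhibitors of protein kinase A with the cyclase-associated and efflux proteins 1 of 7. The 7 G protein α subunit genes and the 8 genes of CREB and its partners had none called. Without Phf21bΔ4/Δ4 replicate 6 the calls came to 12 higher (20.0% of the 60, against 10.3% of all genes) and 8 lower (13.3% of the 60, against 9.29% of all genes), and without any 1 of the other libraries to at most 1 in each direction.

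*Npr1* encodes a receptor guanylyl cyclase, the receptor of atrial natriuretic peptide, whose symbol lies outside the rule used for the 36 genes. It had 2.95, 2.48, and 4.26 CPM in Phf21bΔ4/Δ4 mice and 9.96, 16.5, and 14.8 CPM in Phf21b+/+ mice. It was called lower, and was so in every Phf21bΔ4/Δ4 mouse (limma log2 fold change -2.09, standard error 0.27, FDR 0.058). *Nppa*, the gene of that peptide, had 0, 1, and 1 reads in Phf21bΔ4/Δ4 mice and 45, 58, and 86 reads in Phf21b+/+ mice, so that against the mean level of 3 reads per library it was at least 21.1-fold lower (FDR 0.071, limma). The study, which also lists *Nppa* as lower, could not verify that change by qRT-PCR. *Npr2*, the receptor guanylyl cyclase of C-type natriuretic peptide, was not called, at a log2 fold change of -0.13. The medial habenula, thalamic, and dentate granule cell markers were lower in sum in the same 3 mice, and a link was not tested.

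*Akap5*, which anchors protein kinase A and calcineurin at synapses, was called higher (log2 fold change 0.86, FDR 0.067, limma), and *Pkia*, an inhibitor of protein kinase A, was called lower (log2 fold change -0.39, FDR 0.089, limma). The CA1, interneuron, and vessel markers, also higher in sum in all 3 Phf21bΔ4/Δ4 mice, moved in the direction of *Akap5*. A link with any of them was not tested.

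The cAMP response element, TGACGTCA, and its shorter form, TGACG, are the letters bound by CREB, through which cAMP acts on transcription. They were searched on both strands of the RefSeq promoter windows, from 250 bases before to 50 bases after a start site (GRCm38.p6), which were at hand for 30 of the 36 genes as 57 windows. The shorter form also lies within the full one. No window of the 30 genes held the full form, as 1.79% of all 32851 windows did. The shorter form was in 12 of the 57 windows (21.1%) and in 20.8% of all windows, and in 3 of the 20 windows (15%) of the genes whose genotypes did not overlap at over 1.3-fold. The matches in those 3 windows are shown because their genes are among those whose genotypes did not overlap, though none was called. Each is written 5′ to 3′ on the strand of its gene with the matched letters in capitals. They lie at chr2:80039052-80039080 (minus strand) for *Pde1a*, at chr8:88282952-88282980 (plus strand) for *Adcy7*, and at chr9:21184039-21184067 (plus strand) for *Pde4a*.
Pde1a: gtaacttcagccCGTCAttcctcagtaat
Adcy7: tgatcatagagcCGTCAggggggtggggc
Pde4a: ggcacagctcgaCGTCAggctggggagga
All 3 show the shorter form as it reads on the opposite strand, beginning 166, 28, and 50 bases before the start site in that order. A match of letters is no measured binding site, and these RNA values do not tell which start site was used.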

How the data were processed

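Hippocampal RNA-Seq values of 3 Phf21bΔ4/Δ4 and 3 Phf21b+/+ mice were analysed, with each library assigned to its genotype by its label. The log2 CPM values of 14477 genes were deposited by the authors, who trimmed reads with Trimmomatic 0.39, mapped them to GRCm38 with STAR 2.7.3a, counted them per gene with featureCounts (Subread 1.6.4), and used edgeR to drop genes that did not reach 1 CPM in 2 or more samples and to scale by effective library size. Libraries were made from total RNA after removal of ribosomal RNA. Strandedness of the counting is not given in the sources used here. After the lowest value was subtracted, low values came out as whole read numbers (tolerance 0.1, 100.0% of values under 2000 reads), and CPM and reads were recovered from them.

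Genotypes were compared with limma 3.58.1 in R 4.3.3 (lmFit, and eBayes with a trend), 2-sided and without covariates, on all genes, with Benjamini-Hochberg adjustment. The thresholds are those of the study's methods. The fit was made on the values as deposited, on the log2 scale, in place of the study's own test, and voom on the recovered reads was an alternative. The fit was tested on simulated data. P-values measure the spread between mice. Exon lengths and gene positions come from GENCODE M21 on GRCm38, which held 36 of the 36 genes, and promoter windows from RefSeq. Scripts used Python 3.11.15, pandas 2.3.3, NumPy 2.4.6, and matplotlib 3.10.9.

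Values for each mouse are given for genes whose genotypes did not overlap at over 1.3-fold and for the 5 highest per kb, and further genes by fewer values. The genes, role groups, 6 pathway lists, 14 marker lists, and alternatives were chosen with earlier results of these data known. The result of 1 pathway gene is not reported here.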

Additional observations from a re-analysis of the deposited data

How the results depend on the processing

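No paired analysis was possible because the genotypes share no replicate number. There were 15 alternatives (6 leaving out 1 mouse), and calls were also made at 3 other thresholds. *Adcy4*, *Gucy2f*, and *Pde6h* fell below the alternative filter on low values and have no value there, and the non-overlap counts were recomputed only where the values themselves or the mice differ. Of the 36 genes, 29 kept the sign of their difference in every alternative that gave them a value. Calls among the 36 genes came to 10 higher and 6 lower with arrayWeights, and to 0 to 7 higher and 0 to 5 lower with 1 mouse left out. Pathway calls were 15 higher and 9 lower with arrayWeights, 0 higher without a variance trend, 1 lower after genes averaging below 1 on the log2 CPM scale were dropped, 0 higher and 0 lower at an FDR under 0.05, 1 higher at a fold change above 2, and 0 to 12 higher and 0 to 8 lower with 1 mouse left out. Of all genes, 24.5% were called with arrayWeights and 0.0622% to 19.5% with 1 mouse left out, both directions together. The shares of all genes called at the other settings are not given here. The median log2 fold change of the 36 genes was 0.12 with arrayWeights and 0.11 to 0.25 with 1 mouse left out. Genes not overlapping were 11 higher (19.1% of all genes) and 2 lower (11.7% of all genes) after centring on the median of each mouse. With 1 mouse left out they were 9 to 13 higher and 4 to 7 lower, where the shares of all genes also went up, to between 17.6% and 26.8% higher and between 18.8% and 28.5% lower. *Phf21b* was at -1.32 (FDR 0.012) with arrayWeights and from -1.12 to -0.70 with 1 mouse left out. The sign turned with arrayWeights for *Adcy8* (-0.16), *Pde6h* (-0.47), and *Pde8b* (-0.12), with quantile normalization for *Pde3b* (0.047), *Pde4dip* (-0.088), and *Pde8b* (-0.041), and after centring for *Pde3b* (0.024). With 1 mouse left out it also turned for *Adcy8* (-0.21 to 0.47), *Gucy1b1* (-0.17 to 0.010), *Pde1c* (-0.15 to 0.20), *Pde3b* (-0.087 to 0.047), *Pde6h* (-0.11 to 0.31), and *Pde8b* (-0.082 to 0.16). The cause was not tested. With 3 mice per genotype, the intervals above limit what can be shown.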
